A study of Mus musculus with 7 samples.

Results

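Cells in or near division were described within a single library of cultured primary myoblasts, the proliferating descendants of muscle satellite cells. Of the 4429 cell barcodes in this library, 4414 had at least 200 detected genes and at most 10% of their unique molecular identifiers (UMIs, counts of captured RNA molecules) on mitochondrially encoded genes. A cell was taken as marker-high if it held at most 2 UMIs of Myog, the myogenin gene of committed myocytes, and at least 20 UMIs summed over Top2a, Mki67, Cenpf, Ube2c and Birc5. This gave 838 cells. They were set beside 1743 marker-low cells with at most 2 Myog UMIs and at most 2 UMIs of the same sum. Marker-high cells made up 25.2% (exact binomial 95% interval 23.7 to 26.7%) of the 3331 kept cells with at most 2 Myog UMIs, and 750 cells lay between the groups. The whole series held 15474 barcodes, of which 15267 were kept by the same limits on genes and mitochondrial share.

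The myoblasts came from satellite cells sorted by flow cytometry from the hindlimbs of wild-type C56BL/6J mice 3 months old (strain spelled as in the labels). They were grown on collagen in HAM's F10 with 2.5 ng/µl bFGF and 10% horse serum, for 4 passages by one label and 4 to 5 by another. The other 6 libraries held total hindlimb muscle, sorted homeostatic muscle stem cells (MuSCs) and MuSCs sorted 60 h after injury with 2 µM notexin. Each of these groups had 2 libraries. The total muscle libraries are titled wt and came from mice 3 months old, and no age was recorded here for either MuSC group. No label says how many mice or cultures the myoblast library holds. Cells of 1 library are not replicates, so no test was made, and every interval covers counting error only, not the spread between cultures.

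In the cell cycle, S phase copies the DNA, G2 prepares for division and M phase (mitosis) separates the chromosomes. Cdk1 bound to cyclins A and B drives entry into mitosis. The anaphase-promoting complex (APC/C), a ubiquitin ligase, then ends it by marking cyclin B and securin for destruction. Transcripts of division genes accumulate through late S phase, G2 and mitosis, so a high level of them does not by itself mark a cell with condensed chromosomes. Satellite cells are quiescent in resting muscle and enter this cycle when they are activated by injury or put in culture.

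Many genes of late G2 and mitosis carry 2 short promoter elements that act together, the cell cycle genes homology region (CHR), bound by the MuvB complexes, and CCAAT boxes, bound by NF-Y. Genes of the G1 to S transition more often carry E2F sites. Stretches upstream of 6 RefSeq start sites are shown because the marker-high cells held both kinds of gene. Cdc20, Cdk1, Top2a and Ube2c stand for division, Hells and Mcm6 for replication. Hells and Mcm6 were picked among S phase genes that hold E2F letters close upstream of the start. The letters also had to fit in a stretch with at most 30 bases inside the gene as annotated by GENCODE. Among the genes that met both limits they fell most between the lower and upper parts of the marker-high cells ranked below. Rfc3, with E2F letters at -10 to -3, fell more than Mcm6 (log2 -1.80 against -1.53) but was left out by the second limit. The stretches therefore do not show how often such letters occur in either kind of gene. The stretches are chr4:118437344-118437433 (minus strand) for Cdc20, chr10:69352913-69353002 (minus) for Cdk1, chr11:99024190-99024299 (minus) for Top2a, chr2:164769829-164769927 (plus) for Ube2c, chr19:38930880-38930944 (plus) for Hells and chr1:128359706-128359815 (minus) for Mcm6. All are RefSeq sequences of GRCm38.p6, written 5′ to 3′ on the gene's strand. Capitals mark CHR letters (TTTGAA or TTCGAA) and CCAAT on either strand in the first 4, and E2F letters (TTTCCCGC, TTTCGCGC, TTTGGCGC or TTTGCCGC, either strand) in the last pair.
Cdc20: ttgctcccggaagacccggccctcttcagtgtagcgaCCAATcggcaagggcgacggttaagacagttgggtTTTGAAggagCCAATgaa
Cdk1: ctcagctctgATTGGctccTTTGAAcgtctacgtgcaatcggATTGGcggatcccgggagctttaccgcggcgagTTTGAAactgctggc
Top2a: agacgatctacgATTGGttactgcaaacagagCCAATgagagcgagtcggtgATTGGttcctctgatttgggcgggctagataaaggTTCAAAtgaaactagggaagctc
Ube2c: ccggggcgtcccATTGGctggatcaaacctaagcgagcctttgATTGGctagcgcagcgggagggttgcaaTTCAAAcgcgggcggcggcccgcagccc
Hells: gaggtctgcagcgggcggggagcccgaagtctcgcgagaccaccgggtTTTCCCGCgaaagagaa
Mcm6: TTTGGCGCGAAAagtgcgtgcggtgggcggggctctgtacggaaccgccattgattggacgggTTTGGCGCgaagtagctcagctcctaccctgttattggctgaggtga
The base before the RefSeq start was counted as -1. The CHR letters lay at -18 to -13 in Cdc20 and at -71 to -66 and -15 to -10 in Cdk1. They lay at -23 to -18 in Top2a and at -29 to -24 in Ube2c. In the GENCODE annotation, 9 bases of the Cdc20 stretch, 26 of Cdk1, 30 of Ube2c and 30 of Hells lie within the gene. The Cdc20 CCAAT at -8 to -4, the Cdk1 letters at -15 to -10, the Ube2c CHR letters and the Hells E2F letters are among these bases. In Mcm6 a pair of E2F words on opposite strands overlap from -110 to -99, and another word lies at -47 to -40. CCAAT was not marked in the last pair, and Mcm6 holds it on the opposite strand at -57 to -53 and -14 to -10. Cdk1 also holds an E2F word at -131 to -124, outside the stretch shown. A match of letters is a description of the window, not evidence that a factor binds there.

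The marker-high cells were deeper than the marker-low cells. Their median was 28507.5 UMIs and 5445.5 genes per cell, against 23467 UMIs and 4791 genes, a 1.21-fold difference in UMIs. The median mitochondrial share was 0.991% and 1.01%. Levels below are therefore UMIs summed over the cells of a group and scaled to a total of 1000000 (CPM), or UMIs per 10000 after each cell was thinned at random to that depth, which 829 marker-high and 1674 marker-low cells allowed. Scrublet called 8 kept cells doublets, 3 of them marker-high. At a set rate of 0.8% per 1000 cells, 3.70% of marker-high and 2.35% of marker-low cells were among the 156 highest doublet scores. Barcodes of 12 marker-high cells also occur in another library. Myogenic markers were present in the marker-high sum (6 genes, 1350 CPM together). Markers of other types stood at 0.863 CPM for 5 fibro-adipogenic genes, 0.905 for 5 endothelial, 3.33 for 5 mural, 4.52 for 4 glial, 0.329 for 6 immune and 0 for 3 erythroid genes. Lum and Dpt, Cdh5, Emcn and Fabp4, Myh11 and Kcnj8, Sox10, and Cd74, Cd3e and C1qa had no UMI there. The 24.2 CPM of the tenocyte list was all Scx, with Tnmd, Fmod and Kera at 0. The 5 myofibre genes came to 239 CPM, against 253 in marker-low cells.

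The 5 genes of the rule contributed unequally to the sum. Top2a, the topoisomerase that untangles chromosomes, gave 24.6% of its UMIs, and Ube2c, the ubiquitin-conjugating enzyme of the APC/C, gave 24.4%. Birc5 (survivin, of the chromosomal passenger complex) gave 23.3%, Cenpf (a late kinetochore protein) 18.5% and Mki67 (the Ki-67 coat of mitotic chromosomes) 9.25%. Per marker-high cell Top2a ranged from 0 to 42 UMIs with a median of 15, Ube2c from 0 to 63 (median 10) and Cenpf from 0 to 116 (median 7). Birc5 had at least 1 UMI in every marker-high cell, while 72 cells had no Top2a, 23 no Mki67, 21 no Cenpf and 7 no Ube2c. The sum itself ran from 20 to 279 UMIs with a median of 47, and no gap separated the cells at the threshold: 21 cells held 19 UMIs and 23 held 20. In cells just outside (sum 15 to 19, 113 cells) and just inside (20 to 24, 96 cells) the threshold, Cdk1 stood at 131 and 200 CPM, Ccnb1 at 107 and 113 CPM and the replication gene Pcna at 110 and 147 CPM. The plot of the marker sum shows this unbroken fall in cell number.

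**Figure D1:**
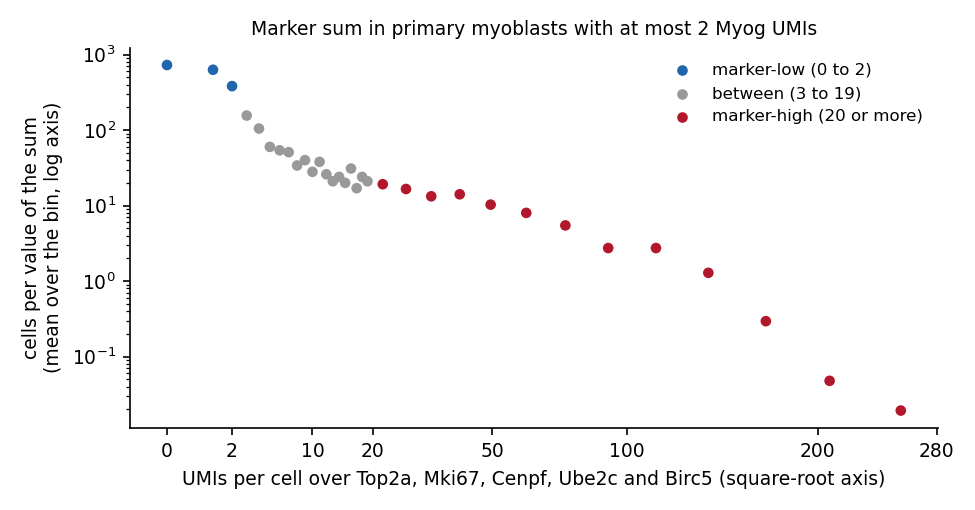
Number of cells (log axis; the mean number of cells per value of the sum within each bin) by the UMIs summed over Top2a, Mki67, Cenpf, Ube2c and Birc5 (square-root axis) in the 3331 primary myoblasts with at most 2 Myog UMIs. Points are coloured by group: 1743 marker-low cells with a sum of 0 to 2, 750 between and 838 marker-high cells with a sum of 20 or more, and the number per value falls with no gap at the threshold.

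Outside the 5 rule genes and Myog, 5713 genes reached a mean of at least 20 CPM over the 2 sums. Their median log2 ratio of marker-high over marker-low CPM was 0.0037, and 94.6% lay within 2-fold. At least 2-fold higher in the marker-high cells were 281 genes (4.92%), and 26 (0.455%) were at least 2-fold lower. The cells were chosen by transcripts of the same program, so these ratios describe the chosen cells and test nothing. The floor is a mean over both sums. A gene near 0 CPM in marker-low cells therefore reaches it only through the marker-high cells, and is then at least 2-fold higher by construction. Counts and medians of the division and replication lists below follow partly from this. Of the 281 higher genes, 138 belonged to the cell cycle and other lists used here, and of the 26 lower genes 3 did. The plot of ratio against level shows division genes far above the band of other genes and ribosomal protein genes close to 0.

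**Figure D2:**
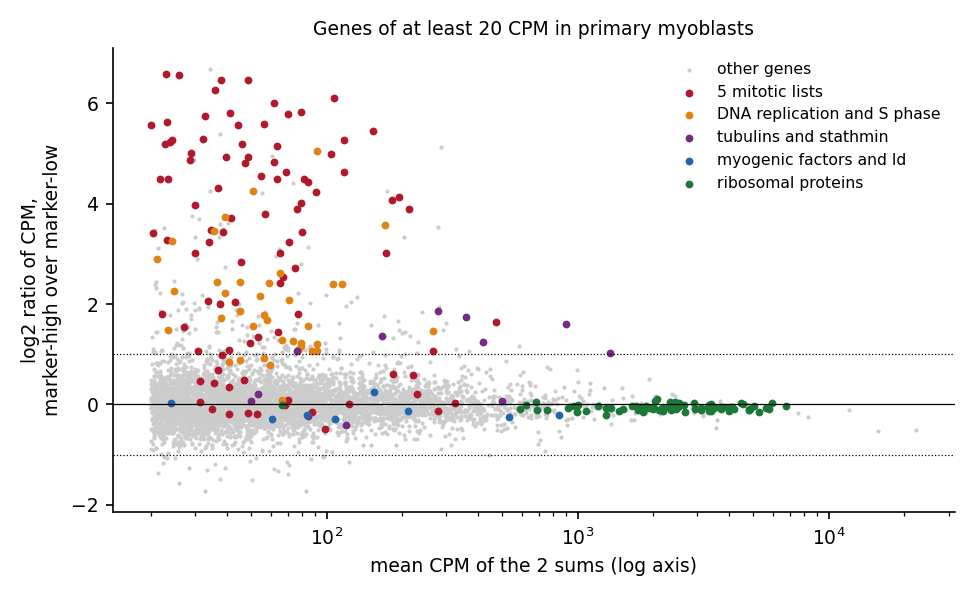
Log2 ratio of CPM in marker-high over marker-low cells (vertical axis) against the mean CPM of both sums (log axis), 1 point per gene of at least 20 CPM; dotted lines mark 2-fold. The 5 mitotic lists (kinases, anaphase, kinetochore, spindle, cytokinesis) and the S phase list reach above 5, tubulins and stathmin lie at up to 1.85, and ribosomal protein genes lie near 0.

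The first list holds mitotic kinases, cyclins and their regulators (24 listed). All 16 members with a mean of 20 CPM or more were at least 2-fold higher, with a median log2 ratio of 4.49. For members near 0 CPM in marker-low cells the floor itself requires such a ratio. Cdk1 (ENSMUSG00000019942, GRCm38 chromosome 10, 69335146 to 69352938, minus strand), the mitotic kinase, held 0 to 15 UMIs per 10000 in marker-high cells with a median of 3, and 0 to 4 with a median of 0 in marker-low cells. The ranges overlapped between 0 and 4. Summed, this was 400 against 26.8 CPM, 14.9-fold higher (log2 3.90, interval 3.81 to 3.99). Of the cyclins that activate it, Ccna2 and Ccnb1 had higher ratios than Cdk1. Ccna2 stood at 155 against 2.75 CPM (log2 5.82, 5.55 to 6.10) and Ccnb1 at 228 against 5.92 CPM (log2 5.27, 5.09 to 5.46), each with a median of 0 in marker-low cells after thinning. Ccnb2 differed less than Cdk1, at 128 against 13.6 CPM (log2 3.23, 3.11 to 3.37). Aurkb, the Aurora kinase of the chromosomal passenger complex, was 48.0-fold higher (110 against 2.296 CPM), and Bub1, a kinase of the spindle checkpoint, 38.9-fold (62.5 against 1.61 CPM). Pbk, a mitotic protein kinase, was 55.5-fold higher. The Cdk subunit gene Cks1b had a smaller ratio from a higher base, 717 against 228 CPM (log2 1.65), and was found in every thinned marker-high cell (1 to 19 UMIs per 10000, median 7, against 0 to 10, median 2).

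Anaphase genes varied. Of 23 members at the floor 10 were at least 2-fold higher and the median log2 ratio was 0.58. Cdc20, the activator that switches the APC/C on in mitosis, held 0 to 19 UMIs per 10000 (median 3) in marker-high and 0 to 6 (median 0) in marker-low cells, 367 against 20.9 CPM (log2 4.13, 4.03 to 4.23). The shugoshins Sgol2a and Sgol1, protectors of centromere cohesion, were 47.7-fold and 30.5-fold higher, and Fbxo5, the APC/C inhibitor Emi1, 28.5-fold. The checkpoint protein gene Mad2l1 had a log2 ratio of 3.43 and Bub3 one of 1.07. Some subunits of the APC/C itself lay within 2-fold: Anapc5 at 0.58, Cdc27 at 0.44, Cdc16 at 0.09, Anapc13 at 0.01 and Anapc10 at -0.19. The other subunits are not given here, and not all of them lay within 2-fold. Pttg1, the securin gene, stood at 45.6 CPM in marker-high and 51.4 CPM in marker-low cells, a log2 ratio of -0.17.

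The machinery that moves and divides the chromosomes followed the kinases. In the centromere and kinetochore list 22 of 25 members at the floor were at least 2-fold higher (median log2 3.41), in the spindle and motor list 20 of 21 (4.49) and in the cytokinesis list 7 of 11 (4.54). Cenpe, a kinesin that carries chromosomes to the spindle equator, held 0 to 13 UMIs per 10000 (median 2), against 0 to 3 (median 0), and was 68.9-fold higher (210 against 3.05 CPM). Cenpa, the centromeric histone H3 variant, stood at 345 against 20.5 CPM (log2 4.08), and Casc5 (Knl1), the scaffold of the outer kinetochore, at 96.4 against 1.09 CPM (log2 6.47). Zwint, another kinetochore protein gene, was an exception with 245 against 212 CPM (log2 0.21).

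Spindle genes included Aspm, a spindle pole protein (45.3 against 0.473 CPM, log2 6.58), Kif11, the motor that separates the poles (51.2 against 0.544 CPM, log2 6.56), Nusap1, a microtubule bundler (log2 6.46), and Tpx2, the activator of Aurora A (225.5 against 9.14 CPM, log2 4.63). Among cytokinesis genes the midzone bundler Prc1 held 0 to 17 UMIs per 10000 (median 2) against 0 to 2 (median 0), 299 against 6.89 CPM (log2 5.44). The midzone kinesin Kif23 had a log2 ratio of 5.15. Of the general cytoskeletal members of the same list, Rhoa lay at -0.13 and Sept7 at 0.04. The lowest member of the list at the floor lay at -0.48.

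Over these 5 lists together, 75 of 96 members at the floor (124 listed) were at least 2-fold higher, with a median log2 ratio of 3.59. Summed per cell without the floor, all 124 members came to 45 to 257 UMIs per 10000 (median 114) in marker-high cells. In marker-low cells they came to 13 to 70 (median 31), so the lowest marker-high cells overlapped the highest marker-low cells.

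Tubulins, the building blocks of the spindle and of the interphase cytoskeleton, showed smaller ratios at high levels. Of the 12 genes of the tubulin and stathmin list 7 were at least 2-fold higher (median log2 1.05). Tuba1b had 1 to 35 UMIs per 10000 (median 13) in marker-high and 0 to 19 (median 4) in marker-low cells, 1347 against 445 CPM (log2 1.60). Tubb4b (555 against 165 CPM, log2 1.75), Tubb5 (1805 against 884 CPM, log2 1.03) and Stmn1, a tubulin-sequestering protein gene (435 against 120 CPM, log2 1.85), were also higher. Tuba1a, also an interphase tubulin, stood at 511 against 489 CPM (log2 0.06).

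The list of condensins, other chromatin proteins and lamins was higher in most members. In it 18 of 22 members were at least 2-fold higher (median log2 1.78). The condensin genes Ncapg (73.3 against 1.75 CPM, log2 5.39) and Smc4 (510 against 43.8 CPM, log2 3.54) compact mitotic chromosomes. The chromatin protein gene Hmgb2 held 0 to 12 UMIs per 10000 (median 3) against 0 to 5 (median 0), 330 against 17.2 CPM (log2 4.26). Hmgn1 had a log2 ratio of 0.32 and Lmna, the A-type lamin, one of -0.07.

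DNA replication genes were higher in the same cells. All 38 members at the floor (48 listed) lay above 0, and 33 were at least 2-fold higher, with a median log2 ratio of 1.75. Rrm2, the regulated subunit of ribonucleotide reductase, held 0 to 14 UMIs per 10000 (median 3) in marker-high and 0 to 6 (median 0) in marker-low cells, 314 against 26.4 CPM (log2 3.57). Tk1, thymidine kinase, was 33.3-fold higher (178 against 5.33 CPM), Clspn, a replication checkpoint adaptor, 19.1-fold (97.0 against 5.07 CPM), and Pcna, the polymerase clamp, 2.97-fold (126 against 42.4 CPM). Dut, which removes dUTP, stood at 388 against 141 CPM (log2 1.46). Summed per cell, the list ranged from 4 to 104 UMIs per 10000 (median 39) in marker-high and from 0 to 69 (median 10) in marker-low cells.

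Only 5 replication-dependent histone genes reached the floor. Most mRNAs of this class end in a stem-loop in place of a poly(A) tail, and a 3′ kit captures RNA by its poly(A) tail. Hist1h1b (109 against 2.32 CPM, log2 5.56), Hist1h1e (log2 3.50) and Hist1h4i (log2 2.05) were at least 2-fold higher, while Hist1h2bc was lower at 36.1 against 87.9 CPM (log2 -1.28).

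G1 regulators behaved differently from the rest of the cycle. Of 16 members at the floor Cdkn2c and Cdkn2d, inhibitors of Cdk4 and Cdk6, were at least 2-fold higher (log2 2.47 and 2.02), and Mxd4, a Myc antagonist, was lower (15.2 against 50.5 CPM, log2 -1.73). The other 13 lay within 2-fold, and the median log2 ratio was -0.16. The D-type cyclins, which carry growth factor signals into G1, were lower without passing 2-fold. Ccnd2 held 0 to 25 UMIs per 10000 (median 4) in marker-high and 0 to 41 (median 9) in marker-low cells, 513 against 972 CPM (log2 -0.92, -0.95 to -0.89). Ccnd1 held 0 to 26 (median 6) and 0 to 38 (median 9), 672 against 1049 CPM (log2 -0.64), and Ccnd3 stood at 168 against 194 CPM (log2 -0.21). The ranges of all 3 overlapped over most of their length. Cdkn2b, the p15 inhibitor gene, had a log2 ratio of -0.94, and Cdkn1a, the p21 gene, stood at 777 against 750 CPM (log2 0.05).

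Myogenic identity genes differed little between the groups. Of 8 transcription factor and Id genes at the floor none passed 2-fold, and the median log2 ratio was -0.22. Pax7 (chromosome 4, 139737062 to 139833528, minus strand), which marks satellite cells, held 0 to 5 UMIs per 10000 (median 1) in marker-high and 0 to 8 (median 1) in marker-low cells, 77.6 against 89.9 CPM (log2 -0.21, -0.29 to -0.13). Myod1, the determination factor of myoblasts, held 0 to 27 (median 4) and 0 to 34 (median 5), 490 against 580 CPM (log2 -0.24). Myf5 lay under the floor at 10.7 and 11.3 CPM, and its interval of -0.30 to 0.14 included 0. The Id genes encode inhibitors of these factors, and Id2 had a log2 ratio of 0.25, Id1 of -0.13 and Id3 of -0.22. No member of the differentiation and fusion list passed 2-fold (16 at the floor, median -0.19), with Des at 564 against 829 CPM (log2 -0.56) and Chrng, the fetal acetylcholine receptor subunit, at -0.76. Myl1 had a log2 ratio of -0.95, and its highest marker-low cell held 356 UMIs per 10000 against at most 4 in marker-high cells. Notch and stem cell genes (5 at the floor, median -0.10), extracellular matrix genes (12, -0.13) and immediate early genes (16, -0.14, with Klf2 alone past 2-fold) were also close to the other genes.

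The group with at most 2 Myog UMIs was set by the rule, so cycling cells with more Myog were counted apart. Among 1083 kept cells with over 2 Myog UMIs, 192 held a marker sum of at least 20. By Myog UMIs the share of such cells was 21.3% at 0 (1294 cells), 27.6% at 1 or 2 (2037 cells), 27.1% at 3 to 9 (558 cells), 13.4% at 10 to 29 (127 cells, interval 7.995 to 20.6%) and 6.03% at 30 or more (398 cells, 3.90 to 8.84%). The share was lowest in the cells with the most Myog, and the interval at 3 to 9 (23.4 to 31.0%) covered the share at 1 or 2.

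The lowest ratios belonged to genes of several kinds. Igfbp5 (chromosome 1, 72857932 to 72874884, minus strand), an IGF-binding protein gene, held 0 to 8 UMIs per 10000 in marker-high and 0 to 19 in marker-low cells, with a median of 0 in both, and stood at 38.4 against 128 CPM (log2 -1.73, -1.83 to -1.63). Its relative Igfbp3 stood at 36.5 against 92.1 CPM (log2 -1.33). The translation inhibitor gene Pdcd4 had a log2 ratio of -1.50, the histone demethylase gene Kdm5b one of -1.39 and the actin-binding profilin gene Pfn2 one of -1.21. The long noncoding RNA Neat1 stood at 76.6 against 168 CPM (log2 -1.14), and Klf2, a transcription factor linked to quiescence in several cell types, at 64.6 against 131 CPM (log2 -1.02). Sox4 was just past 2-fold at -1.003. Housekeeping lists lay near 0: 78 ribosomal protein genes had a median of -0.07, 7 mitochondrially encoded genes -0.05, 13 glycolysis genes -0.07, 10 heat shock and chaperone genes -0.03 and 13 p53 target genes 0.05.

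Levels were then followed across the whole range of the marker sum, in bins of 0 to 2, 3 to 9, 10 to 19, 20 to 39, 40 to 79 and 80 or more UMIs (1743, 500, 250, 315, 348 and 175 cells). The bins are made from the marker sum, so genes of the same program follow it by construction. The late mitotic list (Cdc20, Ccnb1, Ccnb2, Plk1, Cenpa, Cenpe, Aurka, Hmmr, Kif20a and Tpx2) stood at 94.1, 446, 1242, 1546, 1622 and 3237 CPM, with most of its climb below 20 UMIs and above 80. The S phase list took another shape, with 1225, 2051, 3656, 4432, 4717 and 2982 CPM, highest at 40 to 79 UMIs. Ccne2, the cyclin E2 gene of the G1 to S transition, was highest earlier, at 4.97, 27.0, 60.3, 57.3, 40.5 and 5.59 CPM. Cdk1 was higher in each bin than in the one before, 26.8, 46.0, 122, 241, 408 and 594 CPM, while Cdc20 was not, with 20.9, 105, 325, 348, 272 and 551 CPM.

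Ccnd2 and Igfbp5, lower in marker-high cells, were near their marker-high level in the bin of 10 to 19 UMIs. Over the 6 bins Ccnd2 stood at 972, 778, 573, 549, 501 and 485 CPM, and Igfbp5 at 128, 79.6, 42.7, 41.5, 37.7 and 35.7 CPM. Ccnd1 was lowest at 40 to 79 UMIs (1049, 926, 744, 674, 628 and 744 CPM). Median UMIs per cell were 24432 in the bin of 20 to 39 and 33978 in that of 80 or more, and the part of depth in these bins was not tested.

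**Figure D3:**
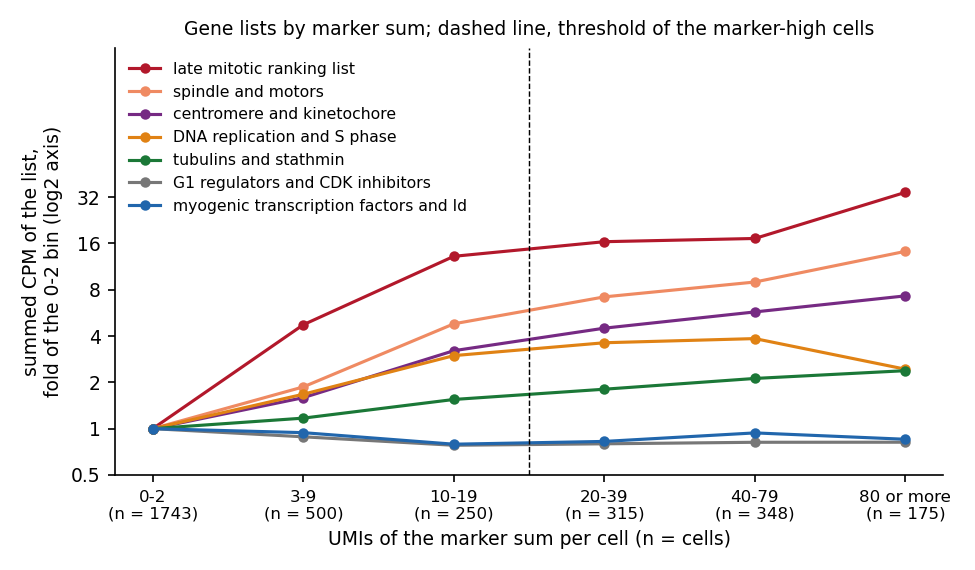
Summed CPM of 7 gene lists as a fold of the 0 to 2 bin (log2 axis) in 6 bins of the marker sum (numbers of cells under the axis); the dashed line marks the threshold of 20 UMIs. The late mitotic list reaches 34.4-fold in the last bin, the S phase list falls back there after its highest value at 40 to 79 UMIs, and the G1 and myogenic lists lie below 1 in every bin after the first.

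The marker-high cells were not alike. Ranked by the thinned UMIs of the late mitotic list and cut into 3 parts of 277, 276 and 276 cells, they held 0 to 11 (median 8), 12 to 25 (median 17) and 25 to 60 (median 34) UMIs of that list per 10000, against a median of 1 in marker-low cells. The S phase list, which did not enter the ranking, ran the other way. Its UMIs per 10000 were 6 to 104 (median 59) in the lower part, 4 to 95 (median 42) in the middle part and 9 to 66 (median 24) in the upper part, against a median of 10 in marker-low cells. Over the 829 cells the Spearman rank correlation between both lists was -0.72, across cells of 1 library that share a fixed total of UMIs. The lower part held more S phase than late UMIs in 276 of 277 cells and the upper part in 48 of 276. The same held for 1640 of 1674 marker-low cells, so this count does not set the lower part apart from them. The S phase list has 48 genes and the late list 10, so their sums are not on the same scale. The parts are ranges and not types: 186 cells lay within 2 UMIs of the lower boundary and 81 within 2 UMIs of the upper one. Median UMIs before thinning were 27935, 28923.5 and 30138, and median marker sums 39, 56 and 74. By these transcripts the name mitotic holds for only some of the marker-high cells, since the lower part combined the highest S phase levels with 121 CPM of Cdc20 against 704 in the upper part.

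**Figure D4:**
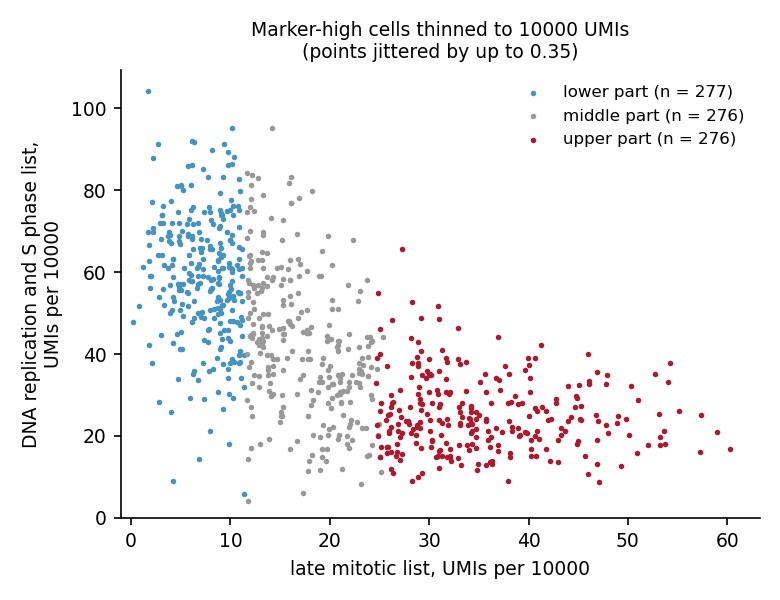
UMIs of the S phase list (vertical axis) against UMIs of the late mitotic list (horizontal axis) per 10000 in each of 829 marker-high cells, coloured by lower, middle and upper part of the ranking (277, 276 and 276 cells). Cells with many late UMIs tend to have fewer S phase UMIs than the other marker-high cells. The medians are 59, 42 and 24 S phase UMIs in the lower, middle and upper part, and the cloud has no gap between the parts.

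Leaving out the ranking genes and the rule genes, 5790 genes reached the floor in the lower and upper parts. Of these 59 (1.02%) were at least 2-fold higher in the upper part and 89 (1.54%) at least 2-fold lower, and the median log2 ratio of all was 0.05. None of the 44 S phase genes at the floor lay above 0, 31 were at least 2-fold lower, and their median log2 ratio was -1.41. These lists belong to the same cycle as the ranking genes, and the floor is again a mean over both sides. The split is therefore again a description.

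Genes of the start of S phase led the lower part. Ccne2 stood at 82.0 CPM in the lower, 24.9 in the middle and 3.42 in the upper part, the last close to the 4.97 CPM of marker-low cells (log2 upper over lower -4.58, -5.20 to -4.03). Cdc6, which loads the replicative helicase, stood at 41.4, 17.2 and 2.53 CPM (log2 -4.03). Ccne1 stood at 189, 83.5 and 35.4 CPM, Pcna at 191, 127 and 56.9 CPM, the chromatin remodeller gene Hells at 163, 83.6 and 34.5 CPM and the helicase subunit gene Mcm6 at 164, 108 and 57.0 CPM. For Ccne1, Ccne2, Cdc6 and Hells the upper part lay below the marker-low cells (43.2, 4.97, 4.64 and 38.5 CPM), whereas Pcna and Mcm6 lay above them (42.4 and 47.4 CPM). Linker histone genes were level between the lower and middle parts, with Hist1h1b at 164, 145 and 17.7 CPM and Hist1h1e at 96.1, 101 and 15.8 CPM. The replication licensing inhibitor gene Gmnn (190, 131 and 66.7 CPM) and Fbxo5 (159, 131 and 66.8 CPM) were the 2 members of the anaphase list at least 2-fold lower.

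In the upper part 13 of 22 spindle genes (median log2 1.12), 5 of 12 cytokinesis genes (0.99) and 6 of 17 kinase and cyclin genes (0.65) were at least 2-fold higher. Only 1 of 29 kinetochore genes was (0.23). Cdkn3, a phosphatase that acts on Cdk1 and Cdk2, stood at 7.39, 27.2 and 64.3 CPM (log2 3.12) and Gas2l3, a cytoskeletal linker of the late midzone, at 6.78, 20.7 and 58.7 CPM (log2 3.11). Aspm stood at 13.4, 33.8 and 89.9 CPM (log2 2.74). Arl6ip1, an endoplasmic reticulum shaping protein gene, stood at 162, 368 and 812 CPM (log2 2.33), against 115 CPM in marker-low cells. The phosphatase gene Cdc25c, which activates Cdk1, stood at 9.69, 20.6 and 41.1 CPM. Of the rule genes, Cenpf (126, 296 and 696 CPM) and Ube2c (214, 472 and 782 CPM) were higher from part to part, Birc5 less so (350.5, 479 and 571 CPM), and Top2a did not (497, 528 and 445 CPM).

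Cdk1 stood at 337, 411 and 451 CPM, higher from part to part but within 2-fold (log2 0.42). Several division genes differed less across the parts. Aurkb stood at 101, 124 and 105 CPM (log2 0.05, -0.09 to 0.19), Hmgb2 at 301, 346 and 341 CPM and Mad2l1 at 67.5, 72.4 and 72.4 CPM. Among the inhibitors Cdkn2d was 2.55-fold higher in the upper part (23.7, 44.1 and 60.6 CPM) and Cdkn2c was level (41.1, 45.2 and 39.7 CPM). Ccnd1 stood at 600, 682 and 737 CPM, Ccnd3 at 195, 168 and 139 CPM and Cdkn1a at 858, 794 and 676 CPM, all within 2-fold. Of the lowest genes of the comparison with marker-low cells, Igfbp5 was level (39.4, 36.1 and 40.2 CPM), while Kdm5b stood at 23.3, 32.1 and 61.1 CPM and Hist1h2bc at 19.9, 23.6 and 66.4 CPM, both still under their 101 and 87.9 CPM in marker-low cells. Myogenic factors varied little. Pax7 stood at 70.5, 79.02 and 83.1 CPM and Myod1 at 476, 522 and 469 CPM, and Id1 at 232, 212 and 157 CPM.

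**Figure D5:**
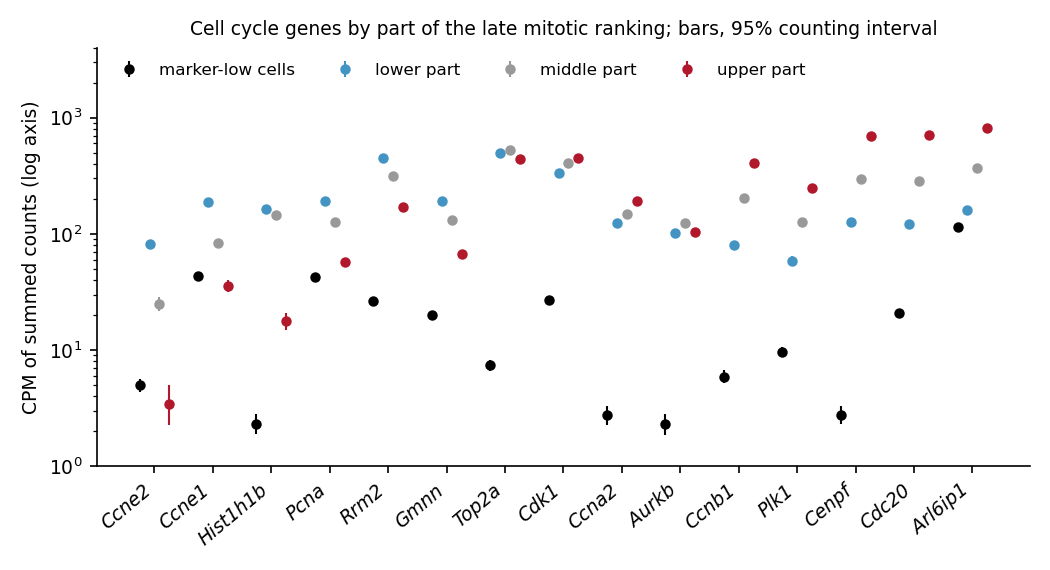
CPM (log axis) of 15 cell cycle genes in marker-low cells and in the lower, middle and upper part of the marker-high cells ranked by the late mitotic list; bars are exact 95% intervals for counting error. Ccne2 drops from 82.0 to 3.42 CPM from lower to upper part, Top2a goes from 497 to 445 CPM, Cdk1 from 337 to 451 CPM, and Cdc20 (a ranking gene) goes from 121 to 704 CPM.

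The promoter letters differed between both kinds of gene. RefSeq windows of 250 bases before to 50 after a start were matched for 76 of the 96 mitotic list members at the floor (85 windows). CHR letters stood in 54.1% of these windows, CCAAT in 70.6% and both in 47.1%, against 19.2%, 37.4% and 7.52% of all 32851 windows and 13.8%, 38.0% and 5.83% of the 5682 windows of genes at the floor. E2F letters stood in 4.71% of the mitotic windows, near the 4.58% of genes at the floor. For the S phase list (31 of 38 members matched, 39 windows) the order turned: 17.9% held CHR letters, 53.8% CCAAT and 30.8% E2F letters. Among genes at least 2-fold higher in marker-high cells, those also at least 2-fold higher in the upper part (ranking genes included; 41 of 49 matched, 47 windows) held CHR letters in 68.1% and E2F letters in 0 windows. Those at least 2-fold lower in the upper part (33 of 45 matched, 40 windows) held them in 17.5% and 30%. These shares come from members chosen by their values and are given without a test.

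Depth differs between the libraries, so the rule was repeated in cells of at least 3000 UMIs, thinned to that number, with a marker sum of at least 3. Shallower cells with at most 2 Myog UMIs were left out, which removed 0 of 3331 primary myoblasts, 87 of 1175 and 940 of 2080 injured MuSCs, 1131 of 1573 and 972 of 1415 homeostatic MuSCs, and 960 of 1969 and 1121 of 2423 cells of total muscle. The shares below therefore hold only for the deeper cells of those libraries. In this form 24.6% (exact binomial 95% interval 23.1 to 26.1%) of 3331 primary myoblasts with at most 2 Myog UMIs passed. The injured MuSC libraries gave 40.4% (37.5 to 43.4%) of 1088 and 44.6% (41.7 to 47.6%) of 1140 cells. Without the barcodes that the injured libraries share with each other (251 kept ones), the shares were 35.9% and 44.996%. Barcodes shared with libraries of other groups were not removed. Total muscle gave 0 of 1009 cells, which allows a share of up to 0.297% (3 counts of the total), and 7 of 1302 (0.538%). Homeostatic MuSCs gave 0 of 442, which allows up to 0.679% by the same rule, and 1 of 443 (0.226%). Against cells of the same library with none of the 5 genes, the 5 mitotic lists had a median log2 ratio of 3.25 in primary myoblasts, and of 0.29 and 0.72 in injured MuSCs. The S phase list had 1.503 in primary myoblasts and -0.01 and -0.03 in injured MuSCs. Before thinning, the passing cells and the cells with none of the 5 genes had medians of 27655 and 23846.5 UMIs in primary myoblasts, 8205 and 6922 in the first injured library and 4058 and 3568.5 in the second. A cell with none of the 5 genes at 3000 UMIs is therefore not the same choice in each library, the single myoblast library has no replicate, and no difference between the groups was tested.

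Some of the genes named have a near-identical copy elsewhere in the genome, among them Ccnb1, Cdc20, Plk1, Pbk, Tk1, Pcna, Rrm2, Hmgb2, Stmn1, Cks1b, Hist1h1e, Tuba1a, Tuba1b, Tuba1c and Tubb4b. How reads shared with such copies were counted is not given in the sources used here, so their levels are less certain.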

How the data were processed

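The authors deposited, for 27998 genes, unnormalized whole UMI counts by gene and barcode, from droplet 3′ libraries per the labels' protocols. Tools listed in the submitters' processing notes, with no role stated, are Cell Ranger 2.2.0, Seurat 2.3.4 and bcl2fastq 2.17.1, with build mm10. The primary myoblast library held 114382567 UMIs, with 24320243 in marker-high and 42247205 in marker-low cells.

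Counts were summed over the cells of a group and scaled to a total of 1000000 (CPM). Genes under a mean of 20 were left out of counts and list medians, except where no floor is named; Myf5, under it, is given as a value. A gene was called past 2-fold, with 1 library and no test. Ratios carry exact binomial and levels exact Poisson 95% intervals. Thinning drew UMIs without replacement (seed 1). Cells called by Scrublet (scanpy 1.11.5), whose 0.181% is too low a share for the caller to have worked, were kept. A copy is another gene whose GENCODE M21 transcript aligns with blastn 2.17.0, for 90 bases or more and at 95% identity, to the final 300 bases; 77 of 322 genes searched had one. Python 3.11.15, numpy 2.4.6, scipy 1.17.1 and pandas 2.3.3 were used. Only the ratio of summed CPM and its interval were tested on simulated (Poisson) counts, not the other steps.

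Named genes are the 12 highest and 12 lowest ratios among genes of at least 50 CPM without predicted symbols, in each list up to 4 members of largest ratio and the 2 most abundant, and every myogenic factor. The text gives a subset. Further members, the genes of the 3 parts and the last genes under 2-fold were named after their values were seen. Members and lists were chosen with earlier results of these data known.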

Additional observations from a re-analysis of the deposited data

How the results depend on the processing

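No paired analysis was possible because the marker-high cells come from 1 library. Of the recomputed values 96 moved by less than the counting interval (or, for counts of genes, stayed within 1.5 times) and 31 moved further. Myf5, under the floor and with an interval that includes 0, changed sign in 3 settings: its log2 ratio of -0.08 was 0.011 with at least 10 UMIs of the sum, 0.031 in cells chosen by their share of the 5 genes and 0.051 in cells of 20000 to 40000 UMIs. No other result changed sign. Other floors changed the counts most. Genes at least 2-fold higher numbered 138 with a floor of 50 CPM and 1163 with none, against 281, and genes at least 2-fold lower 13 and 866, against 26. With all cells under 20 UMIs as the comparison, 13 genes were lower, and the mitotic median was 2.55, the S phase median 1.35 and Myod1 -0.21. With at least 10 UMIs of the sum, 32.7% of cells passed, with a depth ratio of 1.17 and a mitotic median of 3.36. With at least 40 UMIs, 15.7% passed, with a depth ratio of 1.30, mitotic and S phase medians of 3.89 and 1.57, Pax7 at -0.11 and Myod1 at -0.18. Cells chosen by their share of the 5 genes gave an S phase median of 1.61 and a depth ratio of 1.16. With 0 Myog UMIs, 21.3% passed, and Myod1 stood at -0.32 and Myf5 at -0.53. Among cells of 20000 to 40000 UMIs, 28.3% passed, with a depth ratio of 1.15 and Myod1 at -0.21. The S phase median was 1.57 with a floor of 50 CPM. With no floor the medians were 3.81 for mitotic, 2.08 for S phase and -0.26 for immediate early genes. The S phase median of upper over lower part, -1.41, was -1.27 after thinning to 5000 UMIs and -1.15 in cells with at least 40 UMIs of the sum, both chosen after seeing the data. The causes were not tested. Genes of a few CPM rest on few UMIs, and no setting replaces a second culture.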

Other observations

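Genes of lysosomes and autophagy were lower together in the marker-high cells by less than 2-fold. The list was put together after Sqstm1 and Ctsd had been seen among the lower genes, so it is no independent evidence of its direction. Of its 30 genes 25 reached 20 CPM, all 25 lay below 0 with a median log2 ratio of -0.53, and 0 passed 2-fold, against 0.455% of all genes. Sqstm1, the p62 autophagy receptor, stood at 200 against 372 CPM (log2 -0.90, -0.94 to -0.85), Lamp2, a lysosomal membrane protein gene, at 44.3 against 78.1 CPM (log2 -0.82) and Gabarap, of the Atg8 family, at 227 against 396 CPM (log2 -0.80). The protease gene Ctsd stood at 249 against 398 CPM (log2 -0.68), and the proton pump subunit gene Atp6v1a at 57.8 against 97.4 CPM (log2 -0.75). Sqstm1 stood at 372, 309, 240, 217, 186 and 202 CPM over the 6 bins of the marker sum, so most of the difference lay below the threshold of 20 UMIs.

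A small set of marker-low cells carried Meg3, Timp3 and Rgs5. Chosen after these genes were seen, 89 marker-low and 5 marker-high cells held at least 5 UMIs of the 3 genes together. The 89 marker-low cells held 91.5% of the Meg3, 91.3% of the Timp3 and 66.8% of the Rgs5 UMIs of all marker-low cells. These shares are high largely by construction, since the same 3 genes chose the cells. Of genes outside that choice, the 89 cells held 48.9% of the Bgn, 25.1% of the Mgp and 18.6% of the Fn1 UMIs. Their median of Myod1 was 13 UMIs against 11 in the other marker-low cells, and that of Pax7 was 2 in both. Without the cells holding at least 5 UMIs of the 3 genes, 276 genes were at least 2-fold higher and 25 lower.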
